A study of Mus musculus with 6 samples.

Results

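Collagen and laminin chains were followed in the kidneys of mice that had undergone renal ischaemia/reperfusion injury or a sham operation. The members are all genes whose probe name on the array has the form Col, number, a, number, or Lam, a letter from a to c, number. The rule took 106 of the 41174 probes and 54 of the 27343 genes measured, 43 of them collagen chains and 11 laminin chains. By class they were 11 fibrillar chains, 6 chains of type IV, 2 multiplexins, 11 laminin chains, 9 fibril-associated chains with interrupted helices, 6 chains of type VI, 3 short-chain network collagens, 4 transmembrane collagens and 2 others. The rule used no measured value.

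Collagens are secreted proteins in which chains wind into a triple helix. The fibrillar types I, III and V build the fibres of the interstitium and of scar tissue and in the kidney are made mostly by fibroblasts and pericytes. Type IV collagen and the laminins form the networks of the basement membranes that underlie tubules, capillaries and glomeruli: Col4a1 and Col4a2 encode the chains found in basement membranes throughout the body, and Col4a3, Col4a4 and Col4a5 those of the mature glomerular basement membrane. A laminin joins an alpha, a beta and a gamma chain, and the combination of chains differs between tissues.

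Each of the 6 samples was RNA of one kidney sample on one array. The groups were Gpr97-deficient injured (1 array), wild-type injured (2 arrays), Gpr97-deficient sham (1 array) and wild-type sham (2 arrays), all labelled male mouse kidney. Gpr97, now named Adgrg3, is an adhesion G protein-coupled receptor, and the series title links it to acute kidney injury through Sema3A. Nothing used here states how the deficiency was made, how old the mice were, how long ischaemia lasted or when the kidneys were taken. The 6 sample titles carry different numbers without saying what they number. Where arrays were not from separate animals, the spread behind a p-value would be technical; the wild-type injured arrays differed in sex-linked genes, as given next, and so came from different animals.

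Levels are log2 signals relative to the array's own 75th percentile, so that 0 is the 75th percentile and 1 unit is 2-fold. Between 63.0% and 71.1% of probes were well above background per array, no spot used was saturated, and no pair of arrays held identical values. Adgrg3 stood at -5.71 in the Gpr97-deficient injured kidney and at 1.1 and 1.25 in the wild-type injured kidneys, and at -5.34 in the Gpr97-deficient sham kidney against 0.24 and 0.05 in the wild-type sham kidneys. Wild-type injured array 1 went against its male label: Xist, expressed from the inactive X chromosome, stood at 4.10 there, and Ddx3y, Eif2s3y, Kdm5d and Uty of the Y chromosome were not well above background. On the other 5 arrays Xist was not well above background and all 4 Y-linked genes were. Slide 1 carried wild-type injured array 2 and wild-type sham array 1, and slide 2 carried the remaining 4 arrays. Setting an injured array against the sham array of its genotype and slide gave 3 within-slide pairs.

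Of the 54 chains, 45 were well above background on at least 2 of the 6 arrays and entered the test, 38 of them on all 6 arrays. Col9a1, Col9a3, Col24a1, Col28a1, Col10a1, Col8a2, Col17a1, Col6a5 and Col6a6 did not. In the comparison of injured with sham kidneys over both genotypes, 0 members passed an adjusted p of 0.05 (limma, Benjamini-Hochberg over all 19615 genes tested), and 0% of all genes tested did, so that the values given here are differences and not calls. At an unadjusted p under 0.05, 15 of the 45 members (33.3%) were higher in injured kidneys, where 5.77% of all genes tested were, and 2 (4.44%) were lower, where 6.51% of all genes were. The higher members numbered 9 without either Gpr97-deficient array, and the lower members 5 with slide as a term or without wild-type injured array 1. All 3 injured arrays stood above all 3 sham arrays for 15 members, again 33.3%, against 10.1% of all genes. All 3 stood below for 5 members (11.1%), against 12.4% of all genes. The sign of the difference was the same in all 3 within-slide pairs for 17 members that were higher (37.8%, beside 19.6% of all genes) and 9 that were lower (20%, beside 25.3%). Without wild-type injured array 1 the no-overlap counts were 15 and 8 members, against 15.1% and 20.3% of all genes. Over all 54 members the median difference was 0.06, beside -0.02 over all genes, with 31 higher and 23 lower.

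The fibrillar chains of types I, III and V held the 4 largest positive differences among the members. Col3a1, Col1a1, Col5a3, Col5a1 and Col1a2 were 4.60-, 3.99-, 3.66-, 2.95- and 2.03-fold higher in injured than in sham kidneys, with no overlap between the arrays, while Col5a2 was not. The 6 chains had a median difference of 1.72, and the 5 fibrillar chains of other types a median of -0.09. All 6 of the former were well above background on all arrays, but only 2 of the latter 5 were. Over all 11 fibrillar chains, 7 were higher and 4 lower, with a median of 0.73. The median was 0.34 without either Gpr97-deficient array, which leaves the comparison of the wild-type arrays. It was 0.46 when wild-type injured array 1 was left out and 1.21 when array 2 of that group was.

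Col3a1, which forms the homotrimer of type III collagen, stood at 2.44 in the Gpr97-deficient injured kidney and 2.73 and 2.61 in the wild-type injured kidneys, against 0.19 in the Gpr97-deficient sham kidney and 0.53 and 0.46 in the wild-type sham kidneys. The 3 injured arrays lay close together and far above the sham arrays, which also lay close together. The difference was 2.20 on the log2 scale (SE 0.15, limma adjusted p = 0.146). The Gpr97-deficient pair gave 2.26, and the wild-type pairs of slides 1 and 2 gave 2.08 and 2.27. Its probe lies at chr1:45405589-45405648 of mm9. With a variance trend and a robust prior in the same model, Col3a1 passed the test (limma adjusted p = 0.0225) as 1 of 3 genes of the whole array.

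Col1a1, the gene of the more abundant chain of type I collagen, stood at 2.10 in the Gpr97-deficient injured kidney and 2.55 and 1.42 in the wild-type injured kidneys, against -0.24 in the Gpr97-deficient sham kidney and 0.37 and -0.06 in the wild-type sham kidneys. The lowest injured array was thus still above every sham array, and the injured arrays were more spread than those of Col3a1. The difference was 2.0 (SE 0.36, limma adjusted p = 0.262), and a second Col1a1 probe gave 2.24. Col1a2, the partner chain of type I, stood at 4.60, 4.44 and 3.50 in the Gpr97-deficient and wild-type injured kidneys, against 2.91, 3.40 and 3.17 in the sham kidneys of the same order. Its lowest injured array, wild-type array 2, was only slightly above the highest sham array, which came from the same slide; the Gpr97-deficient pair differed by 1.69, and the wild-type pairs of slides 1 and 2 by 0.10 and 1.27.

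The 250 bases upstream of the RefSeq transcript starts of Col3a1 and Col1a2 (GRCm38.p6, plus strand) are shown because these chains were higher in all 3 pairs; capitals mark the TATA motif TATAAA, the CAAT-box motif CCAAT and the Sp1-type motif GGGCGG on either strand, and no match overlaps another here.
Col3a1 upstream, chr1:45311288-45311537: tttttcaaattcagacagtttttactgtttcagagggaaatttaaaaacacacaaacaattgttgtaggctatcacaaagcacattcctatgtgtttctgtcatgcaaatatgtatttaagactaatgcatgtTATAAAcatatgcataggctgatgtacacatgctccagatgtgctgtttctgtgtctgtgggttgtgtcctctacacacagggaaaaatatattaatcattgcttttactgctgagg
Col1a2 upstream, chr6:4505368-4505617: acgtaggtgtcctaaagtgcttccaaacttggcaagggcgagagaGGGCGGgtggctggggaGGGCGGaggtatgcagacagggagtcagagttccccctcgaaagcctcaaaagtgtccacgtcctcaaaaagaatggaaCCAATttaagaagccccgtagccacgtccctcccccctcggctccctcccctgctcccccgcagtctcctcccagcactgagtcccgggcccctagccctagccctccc
The Col3a1 window held 1 TATA motif, which began 117 bases upstream of the start, and neither of the other motifs, and 35.2% of its bases were G or C. The Col1a2 window held 2 Sp1-type motifs, 1 CAAT-box motif and no TATA motif, and 62.0% of its bases were G or C. Of 32851 such windows, 12.4% held the TATA motif, 33.8% the CAAT-box motif and 32.7% the Sp1-type motif. Among the 44 windows of 40 members, 11.4% held the first, 31.8% the second and 54.5% the last. These matches describe letters and say nothing of binding.

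Type V collagen sets the diameter of type I fibrils. Col5a1 stood at -0.32 in the Gpr97-deficient injured kidney and -0.41 and -0.30 in the wild-type injured kidneys, against -2.15 in the Gpr97-deficient sham kidney and -1.52 and -2.05 in the wild-type sham kidneys. The injured arrays were nearly equal, and the difference was 1.56 (SE 0.22, limma adjusted p = 0.258), with 0.54 for a second, dimmer probe. Col5a3 stood at 0.41, -0.60 and 0.28 in the Gpr97-deficient and wild-type injured kidneys, against -2.62, -1.54 and -1.37 in the sham kidneys of the same order. The groups did not overlap, and the difference was 1.87 (SE 0.45, limma adjusted p = 0.298). A second Col5a3 probe, well above background on 4 arrays, went the other way by -0.35, and with the mean of the probes the difference was 0.76. Col5a2 overlapped between the groups, with a difference of -0.15, although RefSeq places it beside Col3a1 on chromosome 1 with no protein-coding gene between them.

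**Figure D1:**
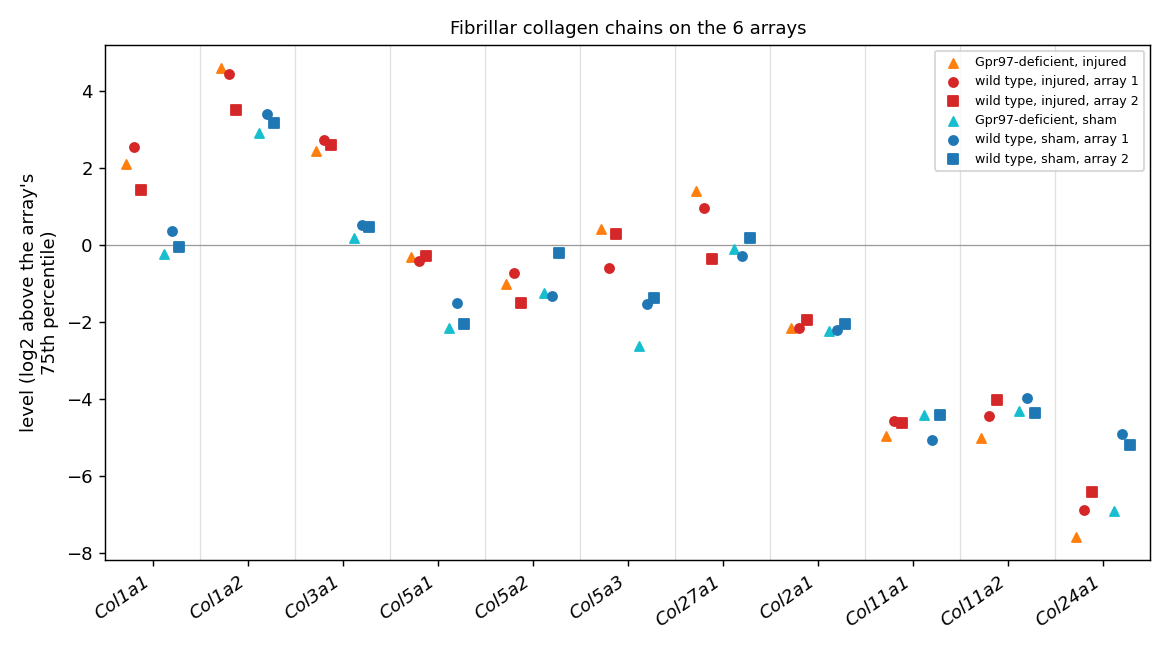
Level of each fibrillar collagen chain on every array, as log2 signal above the array's 75th percentile; each point is 1 array, injured arrays on the left of each gene and sham arrays on the right. Injured points of Col1a1, Col1a2, Col3a1, Col5a1 and Col5a3 lie above all sham points, while Col5a2, Col27a1, Col2a1, Col11a1, Col11a2 and Col24a1 overlap.

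The fibrillar chains of the other types, which belong mainly to cartilage, showed no such separation on their brightest probes. Col27a1 stood at 1.40, 0.95 and -0.36 in the Gpr97-deficient and wild-type injured kidneys, against -0.10, -0.29 and 0.19 in the sham kidneys of the same order. The injured arrays of slide 2 were above all sham arrays and the injured array of slide 1 was below all of them, and all 3 Col27a1 probes gave a positive mean difference of 0.69 to 0.89. Col11a1 and Col11a2 differed by -0.09 and -0.29. Col24a1 was well above background on 1 array only.

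Col2a1, the chain of cartilage collagen, gave different pictures on a pair of 60-base probes that share 40 bases in mm9, in capitals below, which are printed because the reading of Col2a1 depends on which of them is used.
Col2a1 brightest probe, chr15:97806505-97806564, minus strand: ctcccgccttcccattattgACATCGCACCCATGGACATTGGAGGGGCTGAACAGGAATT
Col2a1 second probe, chr15:97806485-97806544, minus strand: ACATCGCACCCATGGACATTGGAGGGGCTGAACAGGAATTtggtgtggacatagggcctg
The brightest probe stayed between -2.24 and -1.94 on all 6 arrays, with a difference of 0.08 between injured and sham kidneys. The second probe stood at -2.78, -2.41 and -0.94 in the Gpr97-deficient and wild-type injured kidneys, against -5.22, -3.24 and -4.73 in the sham kidneys of the same order. Its injured arrays were all above its sham arrays, by 2.36 on average, and it was well above background on all 6 arrays. Which probe follows the transcript was not tested.

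Type IV collagen split by gene pair. Col4a1 and Col4a2 were 2.60- and 2.18-fold higher in injured kidneys with no overlap, whereas Col4a3, Col4a4, Col4a5 and Col4a6 had small negative differences. The first pair had a median difference of 1.25 and the other 4 chains one of -0.27. The median over the 6 chains was -0.16, beside -0.02 over all genes. It turned to 0.13 with normexp, another background correction, under which all genes tested had a median of 0.20 in place of -0.04, and ran from -0.28 to 0 when wild-type sham array 2 or wild-type sham array 1 was left out.

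Col4a1 stood at 3.80 in the Gpr97-deficient injured kidney and 3.19 and 4.08 in the wild-type injured kidneys, against 2.27 in the Gpr97-deficient sham kidney and 2.53 and 2.15 in the wild-type sham kidneys. Col4a2 stood at 3.28, 2.62 and 3.16 in the injured kidneys of the same order, against 1.97, 1.94 and 1.78 in the sham kidneys. In both genes the lowest injured array was wild-type array 1, the one that went against its label, and it was above every sham array. The differences were 1.38 for Col4a1 (SE 0.29) and 1.13 for Col4a2 (SE 0.21), with limma adjusted p = 0.272 and 0.262, and 1.65 and 1.31 without that array. A second probe of each gene gave 1.08 and 1.01. The Gpr97-deficient pair gave 1.53 for Col4a1, and the wild-type pairs of slides 1 and 2 gave 1.55 and 1.05.

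RefSeq places Col4a1 and Col4a2 head to head on chromosome 8, with annotated first bases that lie so close that the transcripts overlap by 22 bases. These 30 bases of the plus strand of GRCm38.p6 are shown because both genes differed alike, and capitals mark the 22 bases of the overlap.
Col4a1 and Col4a2 starts, chr8:11312801-11312830: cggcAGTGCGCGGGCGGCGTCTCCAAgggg
Col4a1 starts at base 11312826 and runs to lower coordinates, and Col4a2 starts at base 11312805 and runs to higher ones. The other type IV genes are neighbours as well, Col4a4 with Col4a3 on chromosome 1 (differences of -0.44 and -0.35) and Col4a6 with Col4a5 on the X chromosome (-0.14 and -0.19). Among the 9 pairs of members that are direct protein-coding neighbours in RefSeq, Col3a1 with Col5a2 (2.20 and -0.15) was the most unequal of those with both genes tested.

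Col4a3 stood at 0.76, 1.09 and 0.55 in the Gpr97-deficient and wild-type injured kidneys, against 1.12, 1.09 and 1.23 in the sham kidneys of the same order. Col4a4 stood at 3.39, 3.62 and 2.82 in the injured kidneys, against 3.69, 3.50 and 3.97 in the sham kidneys. Each was lower in all 3 within-slide pairs, with -0.54 and -0.68 as the largest pair differences, and overlapped only through wild-type injured array 1. The limma adjusted p values were 0.546 and 0.579. Col4a5 and Col4a6 overlapped between the groups. Podocytes make the chains of the glomerular basement membrane, and of 6 podocyte markers, among them Nphs1, Podxl and Wt1, 3 were higher and 3 lower, with a median difference of 0.05. The linear signal summed over them, in units of each array's 75th percentile, was 6.48, 6.28 and 6.71 in the Gpr97-deficient and wild-type injured kidneys and 7.38, 5.60 and 5.28 in the sham kidneys of the same order.

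The multiplexins Col18a1 and Col15a1 sit in the basement membrane zone and release the fragments endostatin and restin. Col18a1 stood at 5.26, 5.22 and 5.21 in the Gpr97-deficient and wild-type injured kidneys, against 4.48, 4.27 and 4.04 in the sham kidneys of the same order. Its injured arrays were almost equal and all above the sham arrays, a 1.95-fold difference (0.96 log2, SE 0.16, limma adjusted p = 0.258). Col15a1 also did not overlap on its brightest probe, at 0.79 log2 (SE 0.20, limma adjusted p = 0.309). A second, dimmer Col15a1 probe overlapped between the groups, with a mean difference of 0.44.

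Laminin chains differed in both directions, with a median of 0.02 over the 11 genes and 7 higher against 4 lower. Lamc1 and Lama5 were higher in injured kidneys without overlap, and Lama3 and Lama1 lower without overlap, although Lama1 turned to 0.27 with normexp. Lama5 and Lamc1 encode the alpha and gamma chains of the main laminins of adult kidney basement membranes, and Lama3 belongs with Lamb3 to the epithelial laminin of anchoring contacts.

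Of the gamma chains, Lamc1 stood at 2.71, 2.40 and 2.74 in the Gpr97-deficient and wild-type injured kidneys, against 2.18, 1.92 and 1.86 in the sham kidneys of the same order. The injured arrays stood together above the sham arrays, and the difference was 0.63 (SE 0.17, limma adjusted p = 0.326). Lamc3 was well above background on 4 arrays and differed by 0.01.

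Of the alpha chains, Lama3 stood at -0.86, -0.99 and -1.05 in the Gpr97-deficient and wild-type injured kidneys, against -0.18, -0.30 and 0.47 in the sham kidneys of the same order. It was 1.94-fold lower in injured kidneys (-0.96 log2, SE 0.26, limma adjusted p = 0.327), and a second probe gave -0.68. It was lower in all 3 pairs, while its partner Lamb3 overlapped between the groups at 0.69 (SE 0.55). Lama5 stood at 2.42, 2.22 and 2.78 in injured kidneys against 1.96, 2.0 and 1.81 in sham kidneys, in the same order, a difference of 0.55 (SE 0.21, limma adjusted p = 0.398). Lama1 differed by -0.28 without overlap, its highest injured array being -2.15 and its lowest sham array -2.12. Lama2 and Lama4 overlapped at -0.08 and 0.02, as did Lamb1 at 0.27 and Lamb2, the beta chain of the glomerular basement membrane, at -0.01.

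**Figure D2:**
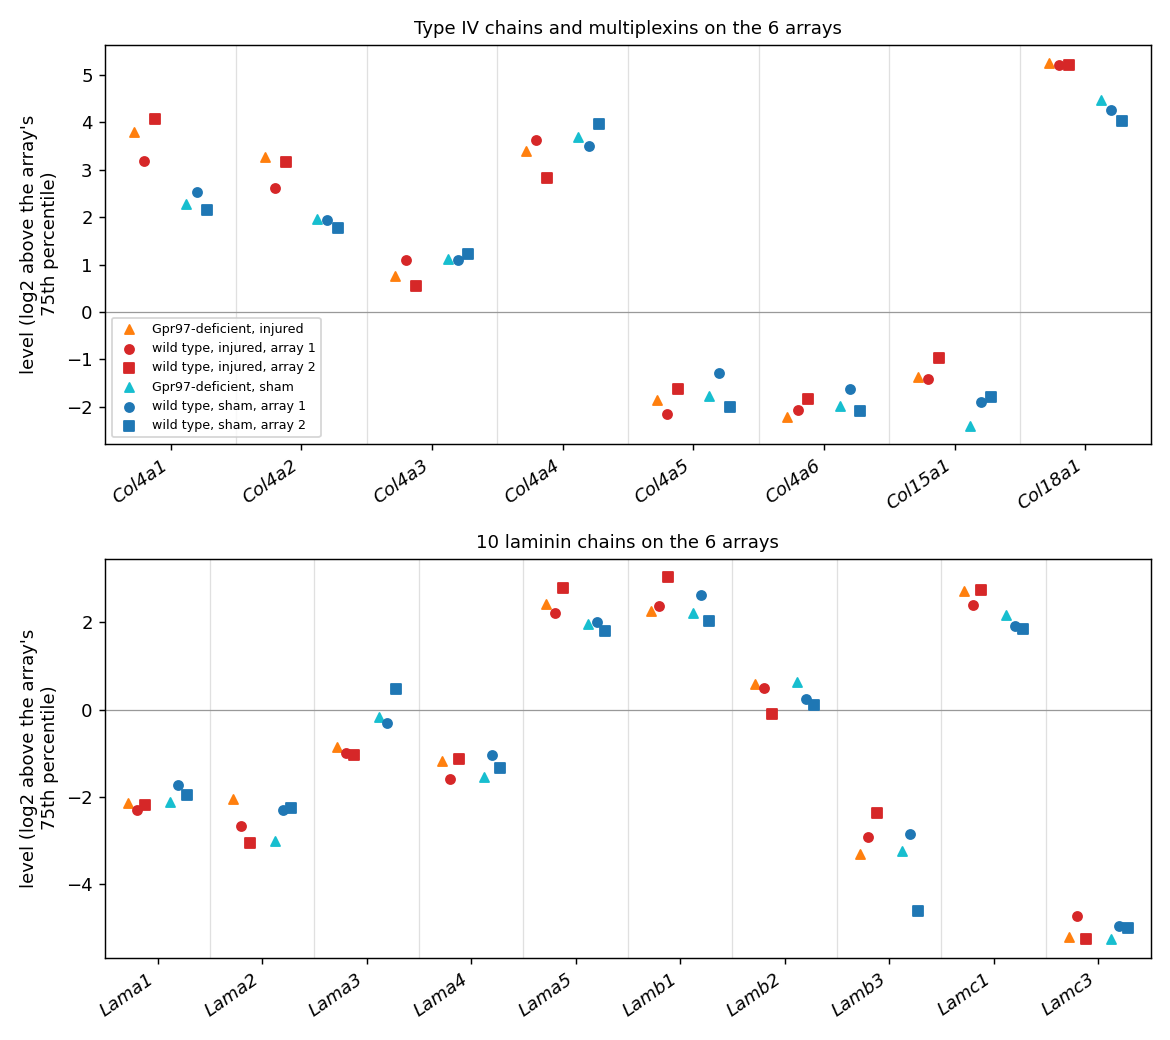
Level of the type IV chains and multiplexins (upper panel) and of 10 laminin chains (lower panel) on every array, as log2 signal above the array's 75th percentile; each point is 1 array, injured on the left of each gene and sham on the right. Col4a1, Col4a2, Col15a1, Col18a1, Lama5 and Lamc1 have all injured points above the sham points, and Lama1 and Lama3 have them below.

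Fibrillar and basement membrane chains were set against each other as classes. The 11 fibrillar chains had medians of 1.5 in the Gpr97-deficient pair and of 0.28 and 0.76 in the wild-type pairs of slides 1 and 2. The 19 basement membrane chains (type IV, multiplexins and laminins) had medians of 0.06, -0.07 and 0.34 in the same order, beside -0.05, -0.08 and 0.01 over all genes tested. The fibrillar median was the higher one in each pair, and the size of the gap varied from pair to pair. Of the fibrillar chains, 5 were higher and 0 lower without overlap, and of the basement membrane chains 7 were higher and 2 lower, beside the 10.1% and 12.4% of all genes given above. These medians describe the classes and carry no test.

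The remaining classes held fewer chains that separated the groups. At least 2-fold differences in the same direction in all 3 pairs were found in 4 members that were higher, Col1a1, Col3a1, Col5a1 and Col4a1, which is 8.89% of those tested beside 1.19% of all genes. In the other direction 1 tested member met the same limit, Col22a1, which is 2.22% beside 0.76% of all genes. No injured array measured it well above background and 1 wild-type pair held no such array at all, so its pair differences are not measured sizes. Col22a1, a fibril-associated chain of tissue junctions, stood at -6.80, -5.24 and -5.38 in the Gpr97-deficient and wild-type injured kidneys, none of them well above background, against -4.15, -3.89 and -3.79 in the sham kidneys, of which 2 were. Taking the lowest signal well above background on each injured array, it was 2.40-fold lower in injured kidneys. This is not a strict bound, because the mean of the sham arrays includes a signal that was not well above background. The limma adjusted p of 0.258 belongs to the signals as they stood and not to this fold. With normexp the direction of Col22a1 was turned, at 0.34.

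Other fibril-associated chains, which coat collagen fibrils, went both ways. Col16a1 was higher without overlap at 0.71 (SE 0.23, limma adjusted p = 0.363), and Col14a1 lower without overlap at -0.61 (SE 0.27, limma adjusted p = 0.454), or -0.34 without wild-type injured array 2. Col19a1 was also lower without overlap, by 1.20-fold when reckoned as for Col22a1. No injured array and only 2 sham arrays had it well above background, so this is not a strict bound either. Normexp turned Col19a1 too, to 0.54. Over the 9 chains of this class the median was -0.25. The short-chain collagen Col8a1, a product of vascular and mesangial cells, was 2.08-fold higher without overlap (1.05 log2, SE 0.18, limma adjusted p = 0.258). Its class mates Col10a1 and Col8a2 were not well above background on any array.

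Type VI collagen forms beaded microfilaments around cells, from Col6a1, Col6a2 and one further chain such as Col6a3. Col6a3 stood at 1.21, 0.74 and 0.99 in the Gpr97-deficient and wild-type injured kidneys, against -1.06, 0.33 and -0.30 in the sham kidneys of the same order, without overlap. The difference was 1.32 (SE 0.37, limma adjusted p = 0.329), and 0.85 without either Gpr97-deficient array. Col6a1 differed by 1.45 in the Gpr97-deficient pair and 1.31 in the wild-type pair of slide 2, and by -0.84 in the wild-type pair of slide 1. Col6a2 differed by 1.23, 1.5 and -0.56 in the same pairs. Both were thus higher in injured kidneys on slide 2 and lower on slide 1. Col27a1 was also higher on slide 2, but its slide 1 pair differed by only -0.08. On slide 1 a single pair was measured, so that slide and array cannot be told apart. Col6a4 was spread widely, with 0.68 in the Gpr97-deficient pair and 0.33 and -2.97 in the wild-type pairs of slides 1 and 2. Of the transmembrane collagens, Col13a1, Col23a1 and Col25a1 overlapped at 0.73, -0.75 and -0.26, and Col7a1, of anchoring fibrils, at -0.02.

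**Figure D3:**
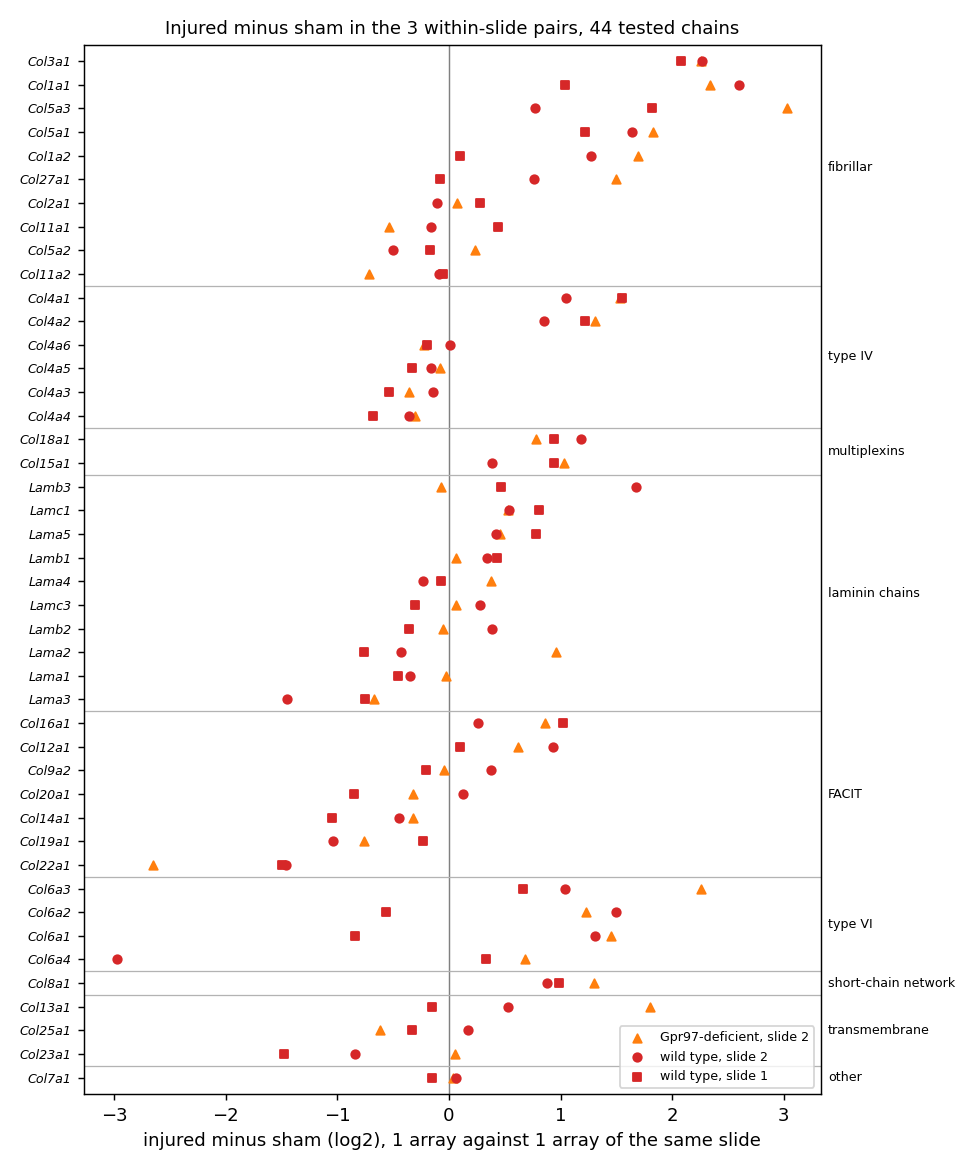
Injured minus sham level (log2) of 44 of the 45 tested chains in each of the 3 within-slide pairs, grouped by class and ordered within class by the mean difference; each point is 1 array minus 1 array. Col3a1, Col1a1, Col5a1, Col4a1, Col4a2 and Col18a1 lie to the right of 0 in all 3 pairs. Col6a1, Col6a2 and Col27a1 lie left of 0 on slide 1, Col27a1 by only -0.08, and right of it on slide 2.

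Genes that make, process and bind these chains were read from lists. Of 19 enzymes and chaperones of procollagen folding, 18 were tested, 14 were higher and 4 lower in injured kidneys, and the median difference was 0.29. Unadjusted p was under 0.05 for 7 that were higher and for 0 that were lower, beside the 5.77% and 6.51% of all genes given above, and 0 passed the adjusted test. The 3 furthest from 0 were Fkbp10, a procollagen prolyl isomerase, at 1.38 (SE 0.21), P3h4 at 0.91 (SE 0.33) and Serpinh1, the collagen chaperone Hsp47, at 0.86 (SE 0.16). Fkbp10 stood at 1.65, 0.88 and 1.22 in the Gpr97-deficient and wild-type injured kidneys, against -0.16, -0.11 and -0.13 in the sham kidneys of the same order. Plod3 and Colgalt1, which hydroxylate and glycosylate collagen lysines, differed by 0.77 and 0.78, also without overlap, while P4hb, the common subunit of prolyl hydroxylase, differed by 0.03.

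Of 14 genes of propeptide cleavage and crosslinking, 13 were tested, 12 were higher and 1 lower, with a median of 0.66. Unadjusted p was under 0.05 for 5, all of them higher, where 5.77% of all genes tested were higher and 6.51% lower. Of the lysyl oxidase family, which crosslinks collagen, Loxl1 differed by 1.40 (SE 0.34). Loxl4 was well above background on all 3 injured arrays and on 0 sham arrays, and was at least 1.79-fold higher. Its limma adjusted p of 0.346 belongs to the signals as they stood and not to this fold. Adamts2, the procollagen N-proteinase, differed by 1.28 (SE 0.26), and Bmp1, the C-proteinase, by 1.07 (SE 0.16), without overlap between the groups, as for Loxl1. Of 13 proteoglycans and matricellular proteins, 9 were higher and 4 lower, with a median of 0.26. Tnc (2.02, SE 0.62), Postn (1.84, SE 0.51) and Sparc (1.05, SE 0.19), matrix proteins of remodelling tissue, were higher without overlap, and Fmod, which binds type I fibrils, lower without overlap at -0.97 (SE 0.25).

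Basement membrane partners were mixed like the laminins: 10 of 11 were tested, 6 were higher and 4 lower, and the median was 0.06. Nidogen 1 (Nid1), which links laminin to type IV collagen, differed by 0.88 (SE 0.36) with overlap, Fras1 by -0.84 (SE 0.30) without overlap, and Smoc2 by 0.75 (SE 0.39) with overlap. Of 14 receptors, 13 were tested, 10 higher and 3 lower, with a median of 0.51. Among the laminin-binding integrins, Itga3 was higher without overlap at 1.11 (SE 0.19) and Itgb4 at 0.79 (SE 0.19), while Itga6 overlapped at 0.97 (SE 0.41). The collagen receptor Mrc2 differed by 0.83 (SE 0.35). Of 10 genes of TGF-beta signalling, a known inducer of matrix genes, 8 were higher and 2 lower, with a median of 0.78, and Tgfbi and Ltbp2 among them differed by 1.23 (SE 0.26) and 1.18 (SE 0.32). In none of these lists did a gene pass the adjusted test.

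Cell type markers moved beside these differences, and their part in the results was not tested. Of 8 fibroblast and pericyte markers, 5 were higher and 3 lower in injured kidneys, and their summed linear signal was 28.5, 19.1 and 21.0 in the Gpr97-deficient and wild-type injured kidneys, against 16.7, 22.3 and 16.6 in the sham kidneys of the same order, with overlap. Pdgfrb and Vim were higher without overlap at 1.26 and 1.12, and Dcn and Lum overlapped at -0.57 and -0.27. Of 6 proximal tubule markers, 5 were lower and 1 higher, with sums of 315, 424 and 273 in injured kidneys against 567, 648 and 721 in sham kidneys, without overlap. All 5 markers of injured tubule (Havcr1, Lcn2, Krt20, Sox9 and Vcam1) were higher, with sums of 79.4, 37.9 and 116 in injured kidneys against 2.82, 4.58 and 3.78 in sham kidneys, also without overlap. In whole kidney RNA fewer cells of a type and less RNA per cell cannot be told apart.

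The injury difference was also taken within each genotype. In Gpr97-deficient kidneys (1 injured against 1 sham array, with the spread taken from the wild-type arrays) 0 members passed, beside 0% of all genes, and unadjusted p was under 0.05 for 9 members that were higher and 1 that was lower, where 1.44% and 1.30% of all genes were. Col5a3 differed by 3.03, Col1a1 by 2.34, Col3a1 and Col6a3 by 2.26 each and Col1a2 by 1.69. Types I, III and V had a median difference of 2.05 in Gpr97-deficient kidneys and of 1.36 in wild-type kidneys.

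In wild-type kidneys (2 injured against 2 sham arrays) 0 members passed the adjusted test, beside 0% of all genes, and unadjusted p was under 0.05 for 9 members that were higher and 3 that were lower, where 3.34% and 3.03% of all genes were. Col3a1 differed by 2.17 (SE 0.23, limma adjusted p = 0.773), Col1a1 by 1.82 (SE 0.48), Col5a1 by 1.43 (SE 0.29) and Col1a2 by 0.68 (SE 0.41). Col4a1 differed by 1.30 (SE 0.41) and Lama3 by -1.10 (SE 0.35).

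The difference of the injury change between the genotypes was tested as an interaction. Of the members, 0 passed the adjusted test, beside 0% of all genes. Lama2 had an interaction of 1.56 (SE 0.46) at an unadjusted p under 0.05 but with a limma adjusted p of 1. Col22a1 had a negative one at that threshold, to which no size is given because no injured array measured it well above background. These stand beside the 0.612% and 0.877% of all genes with a positive and a negative interaction at that threshold. Lama2, the alpha chain of muscle and nerve basement membranes, stood at -2.06 in the Gpr97-deficient injured kidney and -2.68 and -3.06 in the wild-type injured kidneys, and at -3.02 in the Gpr97-deficient sham kidney against -2.31 and -2.25 in the wild-type sham kidneys. It was thus highest of the injured arrays and lowest of the sham arrays in Gpr97 deficiency. All 6 chains of types I, III and V had a positive interaction, with a median of 0.54 beside -0.06 over all genes, and of these Col5a3 was the largest at 1.73 (SE 0.67, limma adjusted p = 1). All these interactions rest on a single Gpr97-deficient array per surgery.

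Gpr97-deficient kidneys were then compared with wild-type kidneys after the same surgery, 1 array against 2, which use the same arrays as the injury comparisons. Both Gpr97-deficient arrays were on slide 2, and wild-type injured array 2 and wild-type sham array 1 were on slide 1. Slide and genotype were thus partly confounded in these comparisons. In the injured kidney 0 members passed the adjusted test, beside 0% of all genes. Unadjusted p was under 0.05 for 2 members that were higher, Col8a1 and Col13a1, and 1 that was lower, Col22a1, where 0.698% and 0.734% of all genes were. Over all 54 members the median was 0.04, beside -0.13 over all genes and -0.02 over all genes tested. Types I, III and V had a median of 0.11, with 5 of 6 higher, and type IV and the laminins each one of 0.10.

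Col8a1 stood at 3.26 in the Gpr97-deficient injured kidney, against 2.25 and 2.10 in the wild-type injured kidneys, and at 1.96 in the Gpr97-deficient sham kidney, against 1.11 and 1.38 in the wild-type sham kidneys. On this brightest probe Gpr97-deficient kidneys were higher after either surgery, by 0.90 over both (SE 0.19, limma adjusted p = 0.994). A second, dimmer Col8a1 probe was higher in the Gpr97-deficient injured kidney, at -1.99 against -3.04 and -2.48. In the sham kidney it lay within the wild-type range, at -3.35 against -3.09 and -3.67. Col13a1, a transmembrane collagen of cell contacts, stood at -0.16 in the Gpr97-deficient injured kidney against -2.13 and -1.83 in the wild-type injured kidneys, but at -1.96 in the Gpr97-deficient sham kidney against -1.68 and -2.67, within the wild-type range. The injured difference was 1.82 (SE 0.52, limma adjusted p = 1). For Col22a1 no size is given, since no injured array measured it well above background.

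In the sham kidney 0 members passed, beside 0% of all genes, and none had an unadjusted p under 0.05, where 1.23% of all genes were higher and 0.907% lower at that threshold. Of the 54 members 39 were lower and 15 higher in Gpr97 deficiency, with a median of -0.25. Over all genes the median was -0.12, with 16576 of 27343 lower. Over all genes tested it was -0.01, with 9953 of 19615 lower. The 54 members include 9 that were not tested. All 6 chains of types I, III and V were lower, with a median of -0.38, the furthest being Col5a3 at -1.17 (SE 0.47, limma adjusted p = 1). Type IV was near 0 with a median of -0.06. The single Gpr97-deficient sham array also had the highest summed signal of red blood cell markers, at 84.1 against 6.68 and 7.25 in the wild-type sham kidneys, and of dividing cell markers, at 3.86 against 0.442 and 1.16. The part of these in the chain values was not tested.

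Over both surgeries 0 members passed, beside 0% of all genes, and unadjusted p was under 0.05 for Col8a1 and Col12a1, which were higher, and Col22a1, lower but unmeasured in injured kidneys, where 1.38% and 1.85% of all genes were. The Gpr97-deficient array lay above both wild-type arrays after both surgeries for 5 tested members (11.1%, beside 9.41% of all genes), namely Col8a1, Col12a1, Col18a1, Col4a2 and Lamb2. It lay below them after both surgeries for 4 (8.89%, beside 12.5% of all genes), namely Col3a1, Col2a1, Col19a1 and Col22a1. For Col19a1 and Col22a1 no injured array was well above background, so their order among the injured arrays is one of background signal. Both shares were close to those of all genes. All these orders are those of the brightest probes. Among the higher members, second probes well above background on all arrays kept the order for Col18a1. Those of Col8a1, Col12a1 and Col4a2 did not.

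**Figure D4:**
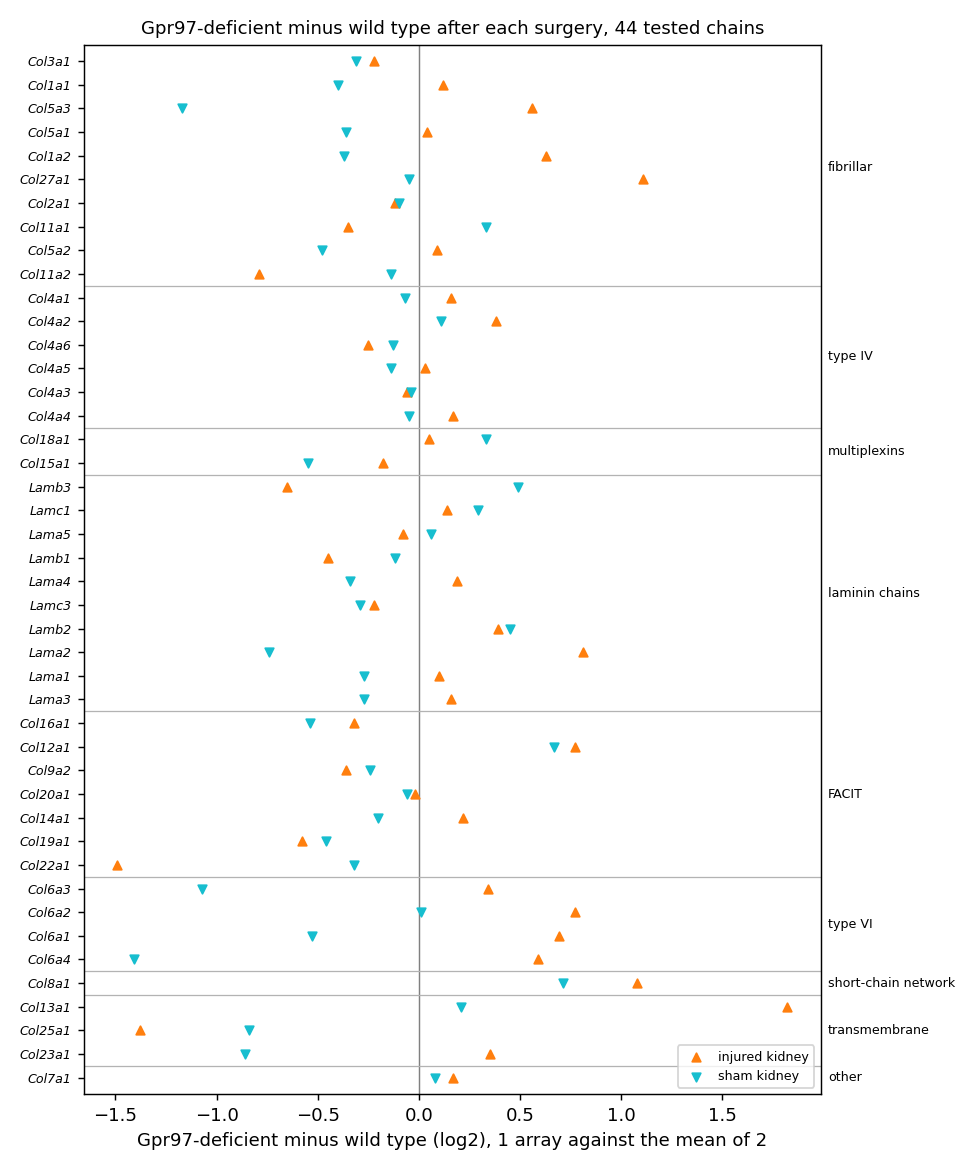
Gpr97-deficient minus wild-type level (log2) of 44 of the 45 tested chains in the injured and in the sham kidney, grouped by class; each point is 1 array minus the mean of 2 arrays. Col8a1 and Col12a1 lie to the right of 0 after both surgeries, and all 6 chains of types I, III and V lie to the left of 0 in the sham kidney.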

How the data were processed

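RNA from 6 kidney samples was hybridised to 1-colour (Cy3) Agilent mouse arrays. Per the file headers, the deposited intensity values are Feature Extraction processed signals (versions 10.7.1.1 on slide 1 and 10.7.3.1 on slide 2), with probe positions on mm9, and the deposited flags per spot (other values, 0 or 1) say whether a spot was well above background, saturated or an outlier. The deposited log2 values of the series share one minimum and one maximum on every array, and no source used here says how they were normalised; the submitters' processing notes name limma. They served as an alternative.

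Control spots were left out, which left 43379 of 45018 spots. Spots flagged as outliers on an array were then dropped on that array. The log2 processed signals of a probe's spots were averaged, and each array's 75th percentile was subtracted. The brightest probe stood for a gene, and a gene was tested if 2 or more arrays had it well above background. Gene names were updated through RefSeq accessions for 27668 probes and through symbols for 6060, and 7446 kept the file's name. Group means and an additive model of genotype and surgery were fitted with limma 3.58.1 in R 4.3.3 (eBayes, two-sided, Benjamini-Hochberg over all genes tested, threshold 0.05). In data simulated for the injury comparison over both genotypes (19606 genes), 28 of 50 genes changed by 2 log2 units and 6 of 50 changed by 1 were called.

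All fibrillar and type IV chains and 10 laminin chains are described; of the other classes, members that differed at least 2-fold in 1 direction in every within-slide pair, and otherwise up to 3 per class with the largest difference; of the gene lists, the 3 furthest from 0. Some genes counted in the totals, 1 laminin chain among them, are not reported here. Col14a1, Col6a1, Plod3, Colgalt1, P4hb, Bmp1, Fmod and Itgb4 and the markers named singly fall outside that rule and were chosen after their values were seen. Members and lists were chosen with earlier results of these data known. The alternatives were normexp background correction, quantile normalization, the deposited values, slide as a term, other filters on dim probes, the mean of the probes, a variance trend with a robust prior, and leaving out each array. The number of arrays limits the precision. Replicate numbers were given in accession order. A probe named Emid2, which RefSeq names Col26a1, was not matched by the rule and is not among the members.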

Additional observations from a re-analysis of the deposited data

How the results depend on the processing

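Each count of genes called was 0 in the 7 comparisons. It became 1 (Sprr2f) for injury over both genotypes with quantile normalization, the deposited values and slide as a term, and 3 (Sprr2f, Mmp7 and Col3a1) with a variance trend and robust prior, which also gave 1 (Adgrg3) for Gpr97 deficiency in the injured kidney and 1 over both surgeries. At an unadjusted p under 0.05, 2408 genes were found for injury over both genotypes, 3457 with slide as a term, 895 with normexp, and between 1249 (without either Gpr97-deficient array) and 3393 (without wild-type injured array 1) when 1 array was left out, with 1591 without wild-type sham array 2. Normexp moved the median of all genes tested to 0.20, beside -0.04, and with it the type IV median was 0.13 beside -0.16 and the laminin median 0.34 beside 0.02; Col19a1, Col22a1 and Lama1 turned to 0.54, 0.34 and 0.27, none of them with an adjusted p below 0.746 (limma). The cause was not tested. Leaving out 1 array, the type IV median ran from -0.28 (without wild-type sham array 2) to 0 (without wild-type sham array 1), and was -0.05 without wild-type injured array 1. The fibrillar median ran from 0.34 (without either Gpr97-deficient array) to 1.21 (without wild-type injured array 2), and was 0.46 without wild-type injured array 1. Leaving out a Gpr97-deficient array reduces the injury comparison to the wild-type arrays. Values without either of these arrays therefore repeat the wild-type comparison. Without wild-type injured array 1, chosen after seeing the data, 8 members in place of 5 were lower without overlap and 15 were still higher. Of 317 values for single chains under an alternative or as reported, 3 turned and 1 newly passed the test. The lead chains kept their direction under every alternative run: Col3a1 between 1.72 and 2.24, Col1a1 between 1.72 and 2.37, Col4a1 between 1.08 and 1.65. No paired analysis was possible because the labels carry no replicate numbers that the groups share; arrays of one slide could be set against each other, and slide was run as a term. Dim members such as Col22a1 are limited by signal over background.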

Other observations

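The other marker lists gave these values for injured against sham kidneys, with the median difference and the summed linear signal in units of the array's 75th percentile. Smooth muscle and myofibroblast markers (2 of 4 higher, median 0.09) summed to 31.8, 20.2 and 26.0 in the Gpr97-deficient and wild-type injured kidneys, against 18.9, 14.3 and 12.7 in the sham kidneys of the same order; Tagln was higher without overlap at 1.08, and Acta2 at 0.37. Endothelial markers (3 of 6 higher, median 0.06) summed to 53.7, 36.6 and 40.0 in injured against 41.8, 44.9 and 37.6 in sham kidneys, and Kdr was lower without overlap at -0.65. Macrophage and other leukocyte markers (2 of 6 higher, median -0.42) summed to 20.7, 19.8 and 9.44 in injured against 31.0, 12.6 and 24.3 in sham kidneys. Of these markers, Cd68 alone was higher without overlap at 2.51, and Csf1r alone was lower without overlap at -0.82.

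Wild-type injured array 2 stood lowest in several tubule lists. Its thick limb and distal tubule sum was 286, beside 406 and 479 on the Gpr97-deficient and the other wild-type injured array and 480, 391 and 400 in the sham kidneys, and its collecting duct sum was 19.6, beside 54.6 and 49.4 on the same arrays and against 48.2, 39.2 and 40.9 in the sham kidneys. The medians of these lists were -0.80 and -0.17. The thick limb and distal tubule sum is mostly that of its brightest gene, Umod, which overlapped between injured and sham kidneys at 0.14. In the same list Slc12a1 and Calb1 were lower without overlap at -1.74 and -1.14, and Slc12a3 overlapped at -0.45. Red blood cell markers ran from 2.67 on wild-type injured array 2 to 84.1 on the Gpr97-deficient sham array, with a median difference of -0.19. Of the 4 adipocyte markers, Cidec differed by 3.45 without overlap, Fabp4 differed by 0.42 with overlap, and Adipoq and Plin1 were not tested. All 5 dividing cell markers were lower, with a median of -1.35, but only 1 of them, Top2a, without overlap. Their sums were 0.359, 0.791 and 0.671 in the Gpr97-deficient and wild-type injured kidneys, against 3.86, 0.442 and 1.16 in the sham kidneys of the same order. Both wild-type injured sums thus lay between those of the wild-type sham arrays.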
